A study of Mus musculus with 2 samples.

Results

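Mir451a, Mir144 and Mir486 are microRNA genes best known from red blood cells. They are 3 of the 2202 microRNA genes counted in the tables, and were taken by matching each Ensembl identifier to its symbol in GENCODE M21. The libraries were made from hippocampus, labelled as layer of hippocampus, of 2-month-old males of B6CASTF1/J. That is the hybrid of the strains C57BL/6J and CAST/EiJ. There was 1 group with 2 biological replicates and no treatment or control group, so values are set side by side between genes, between count columns and between the libraries. The labels give separate biosamples and 1 donor entry for both, and the spread between them may therefore not cover the spread between animals. Whether blood was flushed from the tissue is not stated in the labels.

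Mature red cells lose their nucleus but keep microRNAs made earlier in the lineage, so these RNAs reach any tissue sample that holds blood. Mir144 and Mir451a are known to be cut from a common primary transcript switched on by the erythroid factor GATA1. miR-451a is the textbook exception to the usual microRNA pathway: its precursor is too short for the enzyme Dicer, is sliced by Argonaute2, and is then trimmed. Mir486 lies inside Ank1, the gene of erythrocyte ankyrin, and is also known from skeletal and heart muscle. In a bulk tissue, more blood and more of a microRNA per red cell cannot be told apart.

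The mature sequences are shown as the RNA products of these genes, while the counts are given per annotated gene. RefSeq on GRCm38.p6 held them for 2 of the 3 members, Mir451a and Mir144, and for Mir451b, which lies opposite Mir451a. Capitals mark the seed, bases 2 to 8, which pairs with target RNAs.
mmu-miR-451a: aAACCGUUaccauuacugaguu
mmu-miR-144-5p: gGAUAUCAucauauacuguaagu
mmu-miR-144-3p: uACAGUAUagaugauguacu
mmu-miR-451b: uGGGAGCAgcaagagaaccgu

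No other RefSeq mature mouse microRNA in the table shared bases 2 to 8 with any of these 4. Over bases 2 to 7 there was 1 match, between miR-144-3p and miR-101a-3p. This shorter seed was compared after the values were seen. The product of Mir101a, a gene of the miR-101 family, is shown for that match, with the shared bases in capitals.
mmu-miR-101a-3p: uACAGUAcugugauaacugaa
Mir101a stood at 109 CPM in replicate 1, against 506 CPM in replicate 2. CPM are counts scaled to 1000000 over all microRNA genes of a library.

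The hairpins show how differently the neighbours are built. Capitals mark the mature products.
Mir451a hairpin: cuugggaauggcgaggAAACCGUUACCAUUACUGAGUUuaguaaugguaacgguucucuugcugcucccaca
Mir144 hairpin: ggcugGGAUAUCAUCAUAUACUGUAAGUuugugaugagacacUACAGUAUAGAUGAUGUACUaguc
Mir451b hairpin: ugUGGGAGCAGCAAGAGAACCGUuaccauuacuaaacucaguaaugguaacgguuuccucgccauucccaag

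In the minimum free energy fold of the 72-base Mir451a hairpin, miR-451a ran from base 17 to base 38 and held all 4 bases of the terminal loop. Of 1559 RefSeq mature sequences whose hairpin folded with 1 terminal loop, 2 (0.128%) held the whole loop, miR-451a and miR-468-5p. The 66-base Mir144 hairpin instead carried miR-144-5p at bases 6 to 28 and miR-144-3p at bases 43 to 62, 1 on each side of a 6-base loop that neither touched. The folds are predictions from sequence and are independent of the counts.

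Mir144 (ENSMUSG00000065401.1) lies on the plus strand of chromosome 11, positions 78073005 to 78073070 of mm10. Mir451a (ENSMUSG00000070065.1) follows on the same strand at positions 78073170 to 78073241, with 99 bases between them. Neither lies in an annotated host gene, and the nearest gene that is no microRNA gene is the protein-coding Eral1 on the minus strand, with 134 bases between it and Mir451a. Mir451b (ENSMUSG00000104813.1) covers the same 72 bases as Mir451a on the minus strand. Mir486 (ENSMUSG00000070084.3) lies on the plus strand of chromosome 8, positions 23142555 to 23142682, in an intron of Ank1 and opposite an intron of the antisense gene Gm15816. Mir3107 (ENSMUSG00000106471.1), which RefSeq also calls mir-486b, covers 90 of those bases on the minus strand. Of the 3 members, Mir144 alone has no microRNA gene on the other strand.

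**Figure D1:**
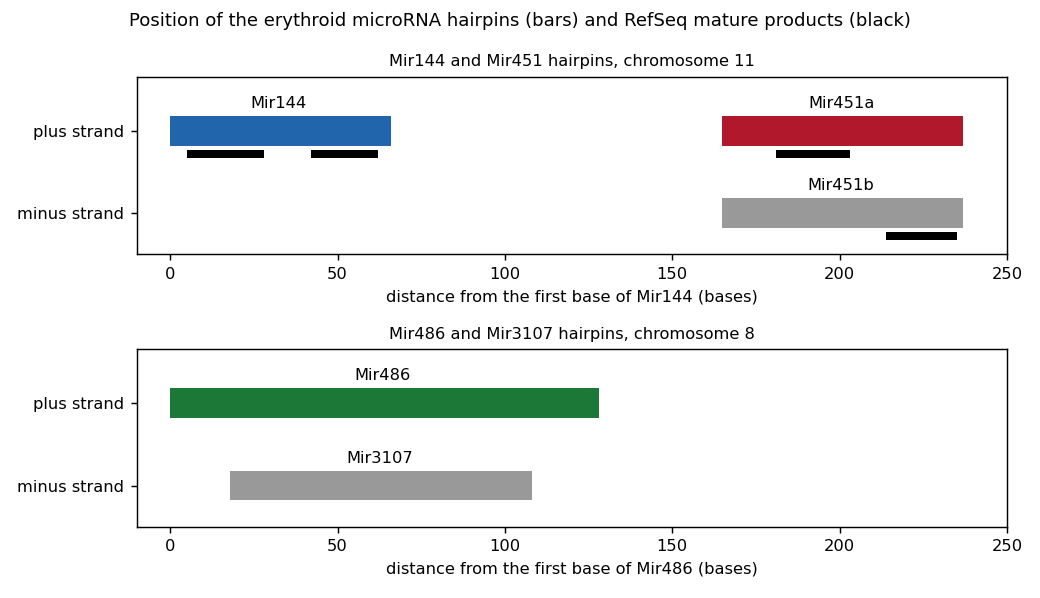
Annotated hairpins (bars) on the plus and minus strands against distance in bases from the first base of Mir144 (top) or Mir486 (bottom), with RefSeq mature products as black bars where the table held them. Mir451a and Mir451b cover the same 72 bases, Mir3107 covers 90 bases opposite Mir486, and Mir144 stands alone.

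Mir451a was the most abundant member by far. On the strand of the gene, 4197 reads were counted on Mir451a in replicate 1 and 3438 in replicate 2. These counts equal 1807 CPM in replicate 1 (Wilson 95% interval 1753 to 1863), against 1007 CPM in replicate 2 (974 to 1041). The level was higher in replicate 1, and the intervals did not overlap. The mean was 1407 ± 566 CPM (SD, n = 2), and Mir451a ranked 67th of 401 detected genes in replicate 1 and 92nd in replicate 2. Detected genes are those that reached 2 CPM in each of the libraries.

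Mir144 stood an order of size lower. It had 220 reads in replicate 1 and 413 in replicate 2, or 94.7 CPM (83.0 to 108) and 121 CPM (110 to 133). Here replicate 2 was the higher library, the reverse of its neighbour Mir451a. The mean was 108 ± 18.6 CPM (SD, n = 2) and the rank was 195 in replicate 1 and 189 in replicate 2. Both hairpin arms are summed in this count, so miR-144-3p and miR-144-5p cannot be separated.

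Mir486 was the least abundant member, with 48 reads in replicate 1 and 73 in replicate 2. Its level was 20.7 CPM (15.6 to 27.4) in replicate 1 and 21.4 CPM (17.01 to 26.9) in replicate 2, and the intervals overlapped almost entirely. It ranked 271st in replicate 1 and 273rd in replicate 2. Mouse miR-486 is known to be made from both strands of this locus, and a read whose sequence occurs on both strands has more than 1 place in the genome. Multimapping reads, which entered no gene, were 42.6% of replicate 1 and 46.0% of replicate 2. They are not given per gene, and their part in the Mir486 count was not tested.

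**Figure D2:**
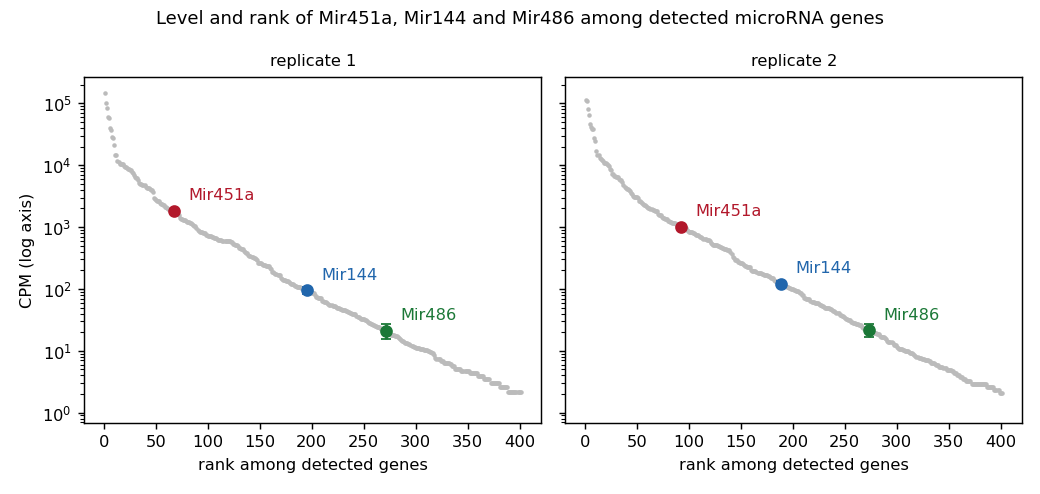
CPM (log axis) against rank for the 401 detected genes (grey) in each library, with Mir451a, Mir144 and Mir486 in colour and Wilson 95% intervals, which are narrower than the point for Mir451a. The order of the members was the same in both libraries, with Mir451a at 1807 and 1007 CPM above Mir144 at 94.7 and 121 CPM and Mir486 at 20.7 and 21.4 CPM.

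Together the members held 4465 reads, or 0.192% of microRNA-gene counts, in replicate 1 and 3924 reads, or 0.115%, in replicate 2. Mir451a made up 94.0% of this sum in replicate 1 and 87.6% in replicate 2. The share of Mir144 was 4.93% in replicate 1 and 10.5% in replicate 2, and that of Mir486 was 1.08% and 1.86%. In the same-strand column, the sum of these 3 genes is thus mostly Mir451a.

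Ratios within a library do not depend on its depth. A small-RNA read covers a mature product whole, so counts were not divided by gene length. Mir451a exceeded Mir144 19.1-fold in replicate 1 (exact 95% interval 16.7 to 21.9) and 8.32-fold in replicate 2 (7.51 to 9.24). The intervals were far apart, and the ratio in replicate 1 was 2.29 times that in replicate 2. The reads of these neighbours thus did not keep a fixed ratio across the libraries.

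Mir451a exceeded Mir486 87.4-fold in replicate 1 (65.8 to 119) and 47.1-fold in replicate 2 (37.4 to 60.2). Mir144 exceeded Mir486 4.58-fold in replicate 1 (3.34 to 6.40) and 5.66-fold in replicate 2 (4.40 to 7.36), and these intervals overlapped. Each of the 3 ratios exceeded 1 in replicate 1 and in replicate 2, with a mean log2 above 2 SD, and was by that rule larger than the spread between the libraries. No p is given, since 2 libraries allow no two-sided sign-flip p below 0.5. The intervals cover counting error only, because PCR copies cannot be told from separate molecules. How evenly the library protocol captured these sequences was not tested. The ratios to Mir486 rest on its reads with a single place in the genome, since multimapping reads entered no gene. They may therefore overstate the gap to its products.

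The choice of count column decided whether Mir451a and Mir486 were seen at all. Besides the column for the strand of the gene, the tables give a column for both strands together and a column for the opposite strand. With both strands together, Mir451a had 0 counts in both libraries, against 4197 and 3438 on its own strand. Mir486 also had 0 in both, against 48 and 73. Mir144, with no gene opposite, kept every read, at 220 and 413 in either column.

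On the opposite-strand column, the reads of Mir451a appeared under Mir451b, at 4197 in replicate 1 and 3438 in replicate 2. Mir451b itself had 0 counts on its own strand in both libraries. Against a floor of 3 counts per library, Mir451a was at least 1399-fold higher than Mir451b in replicate 1 and at least 1146-fold higher in replicate 2. That floor is 1.29 CPM in replicate 1, against 0.879 CPM in replicate 2. The hairpins are nearly palindromic, and miR-451a shares an unbroken run of 16 of its 22 bases with the Mir451b hairpin. At the best position there, 4 bases differed, and none of the 1004 other RefSeq hairpins held miR-451a whole.

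Mir3107 had 3 counts on its own strand in replicate 1 and 1 in replicate 2, at or under the floor. The ratio of Mir486 to Mir3107 was 16 in replicate 1 (exact 95% interval 5.16 to 80.3) and 73 in replicate 2 (12.7 to 2922). These counts cover reads with a single place in the genome only, and do not give the strand of multimapping reads.

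Of the 401 detected genes, 27 (6.73%) kept less than 50% of their reads in the unstranded column in both libraries, among them 2 of the 3 members. All 27 overlap a microRNA gene on the other strand, and no detected gene with such an overlap kept more. The unstranded column held 170529 ambiguous reads in replicate 1 and 253343 in replicate 2, whereas the same-strand column held 0. Mir451a accounted for 2.46% of the microRNA-gene counts lost in replicate 1 and 1.36% of those lost in replicate 2. The members' sum lost 95.1% of its reads in replicate 1 and 89.5% in replicate 2, while all microRNA genes together lost 7.34% and 7.42%.

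**Figure D3:**
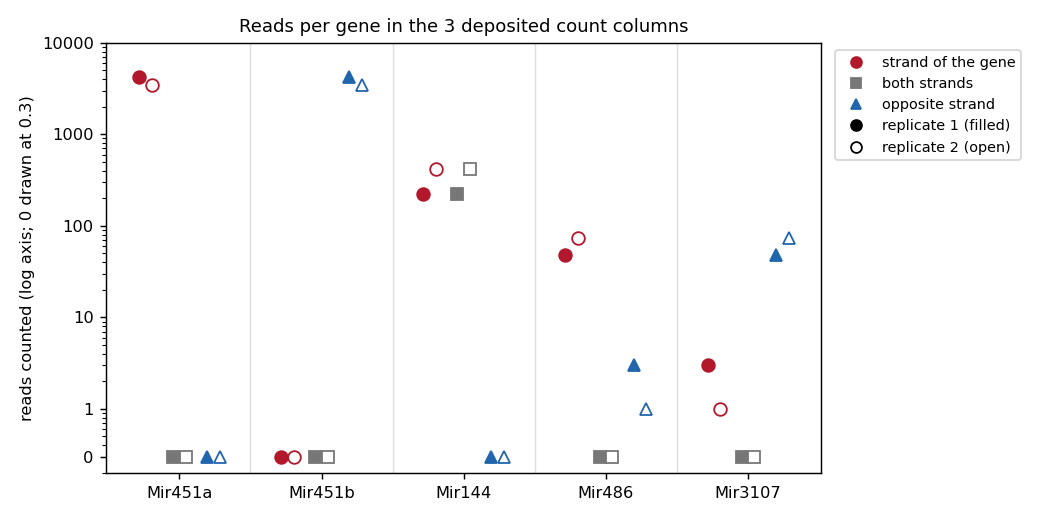
Reads counted (log axis, 0 drawn at 0.3) for each gene in the column of its own strand (red circles), both strands (grey squares) and the opposite strand (blue triangles), in replicate 1 (filled) and replicate 2 (open). Mir451a has 4197 and 3438 reads on its own strand and 0 with both strands together, and the same reads stand under Mir451b on the opposite strand.

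Between the libraries, 2 of the 3 members differed beyond counting error, and in opposite directions. The background for this count is high, since 50.9% of the 401 detected genes differed. The genes higher in replicate 1 made up 22.7% of the 401, and those lower there 28.2%. Mir451a was 1.83-fold higher in replicate 1 (two-sided exact binomial test on the reads of these 2 libraries with edgeR's TMM scaling, Benjamini-Hochberg adjusted p = 1.04e-150 over all detected genes). Mir144 was 0.798-fold in replicate 1 relative to replicate 2 (adjusted exact binomial p = 0.0140), and so lower there. For Mir486 the fold was 0.987 (adjusted exact binomial p = 1). The test compares 2 libraries, not conditions.

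Measured by size rather than by p, 55 of 401 detected genes (13.7%) differed between the libraries by at least as much as Mir451a on the log2 scale. For Mir144 the number was 203 (50.6%), so its difference was close to that of the middle gene. For Mir486 it was 396 (98.8%), so few genes had a smaller measured difference. With 48 reads in replicate 1 and 73 in replicate 2, counting error is wide, and this does not show an unusually steady level. The median log2 difference of all detected genes was -0.03, against 0.87 for Mir451a, -0.33 for Mir144 and -0.02 for Mir486.

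**Figure D4:**
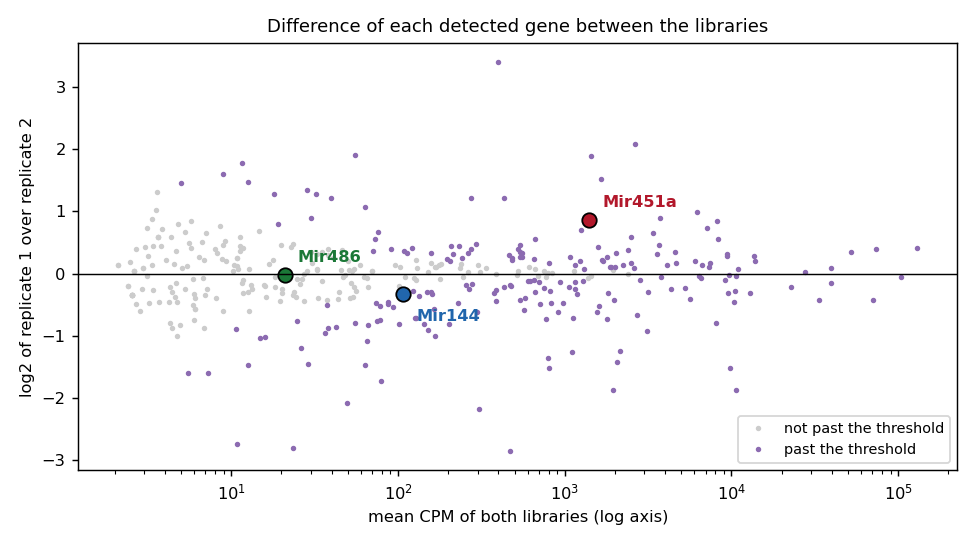
Log2 of replicate 1 over replicate 2 against mean CPM (log axis) for the 401 detected genes, with genes past the adjusted exact binomial threshold in purple and other genes in grey. Mir451a lies above the line of no difference at 0.87, Mir144 below it at -0.33 and Mir486 on it at -0.02.

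By level in both libraries, measured as Euclidean distance in log2(CPM + 1), the detected genes nearest to Mir451a were Mir29c, Mir760 and Mir219a-2. Mir29c had 1539 CPM in replicate 1, against 962 CPM in replicate 2, and was thus also higher in replicate 1. Mir219a-2, an oligodendrocyte microRNA gene, had 2447 and 865 CPM. Nearest to Mir144 were Mir3072, Mir412 and Mir495, with 93.4 to 107 CPM in replicate 1 and 109 to 113 CPM in replicate 2. Nearest to Mir486 were Mir542, Mir362 and Mir1264, with 17.7 to 18.1 CPM in replicate 1 and 18.7 to 22.6 CPM in replicate 2. Likeness over 2 libraries says little beyond a similar level.

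The genes next to each member in the order of mean levels are given for scale. None differed from its member beyond their spread, which follows largely from choosing them for a close mean. Mir298 stood just above Mir451a at 1437 ± 1157 CPM (SD, n = 2), and Mir383 just below at 1373 ± 65.02 CPM. Mir331 and Mir7-1 flanked Mir144 at 109 and 103 CPM. Mir6982 and Mir362 flanked Mir486 at 22.7 and 20.1 CPM. The step between one member and the next was wider than the spread, as the ratios above show.

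Genes listed for leukocytes, microglia and platelets stood on both sides of no difference between the libraries. The list includes microglia, so it does not stand for blood alone. On the list of leukocytes, microglia and platelets, 5 of 6 genes were detected and 4 differed, 2 higher in replicate 1 and 2 lower, beside 50.9% of all detected genes. Mir150, a lymphocyte microRNA gene, had 569 CPM in replicate 1, against 966 CPM in replicate 2 (adjusted exact binomial p = 2.30e-58). Mir142, expressed across blood-forming lineages, had 63.3 and 93.1 CPM (adjusted exact binomial p = 0.000468). Both were lower in the library where Mir451a was higher.

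Mir223, a marker of neutrophils and other myeloid cells, had 1 count in replicate 1 and 27 in replicate 2, the first under the floor of 3 counts. Mir146 was instead higher in replicate 1, at 585 CPM against 497 CPM in replicate 2 (adjusted exact binomial p = 3.07e-06), as was Mir342 at 1948 and 1835 CPM (p = 0.000211). Mir155, an immune-activation gene, had 43.1 and 33.4 CPM (adjusted exact binomial p = 0.0946). The list therefore gave no single direction, with a median log2 difference of 0.11 over its 5 detected genes. Of the 5 listed genes with a RefSeq sequence, Mir146 alone shares a long run of bases with another hairpin. Multimapping reads entered no gene, so the count of Mir146 may leave out part of its product.

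The list of other microRNAs known from red cells, which many tissues also make, held 10 genes, all detected. Of these 4 differed between the libraries, 2 in each direction, while 50.9% of all detected genes differed. Mir22 had 3942 CPM in replicate 1, against 3217 CPM in replicate 2, and Mir15a had 524 and 448 CPM. Mir92-1, of the miR-17-92 cluster, had 323 CPM in replicate 1, against 448 CPM in replicate 2, and Mir25 had 29.7 and 55.4 CPM. The Mir16 genes, abundant in red cells, were nearly level, at 382 and 393 CPM for Mir16-1 and 70.2 and 69.1 CPM for Mir16-2. Of the 9 listed genes with a RefSeq sequence, 4 share a long run of bases with another hairpin. These are Mir16-1, Mir16-2, Mir92-1 and Mir92-2. Multimapping reads entered no gene, so the counts of these genes may leave out part of their products. The median log2 difference of the list was 0.01.

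Among vessel genes, Mir126a, the endothelial microRNA gene in Egfl7, had 14889 CPM in replicate 1, against 12474 CPM in replicate 2, a 1.21-fold difference in the direction of Mir451a. The mural-cell genes Mir143 and Mir145a went the other way, with 6325 and 6736 CPM for Mir143 and 131 and 199 CPM for Mir145a. What part blood content, vessel content or library preparation had in the difference of Mir451a was not tested.

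**Figure D5:**
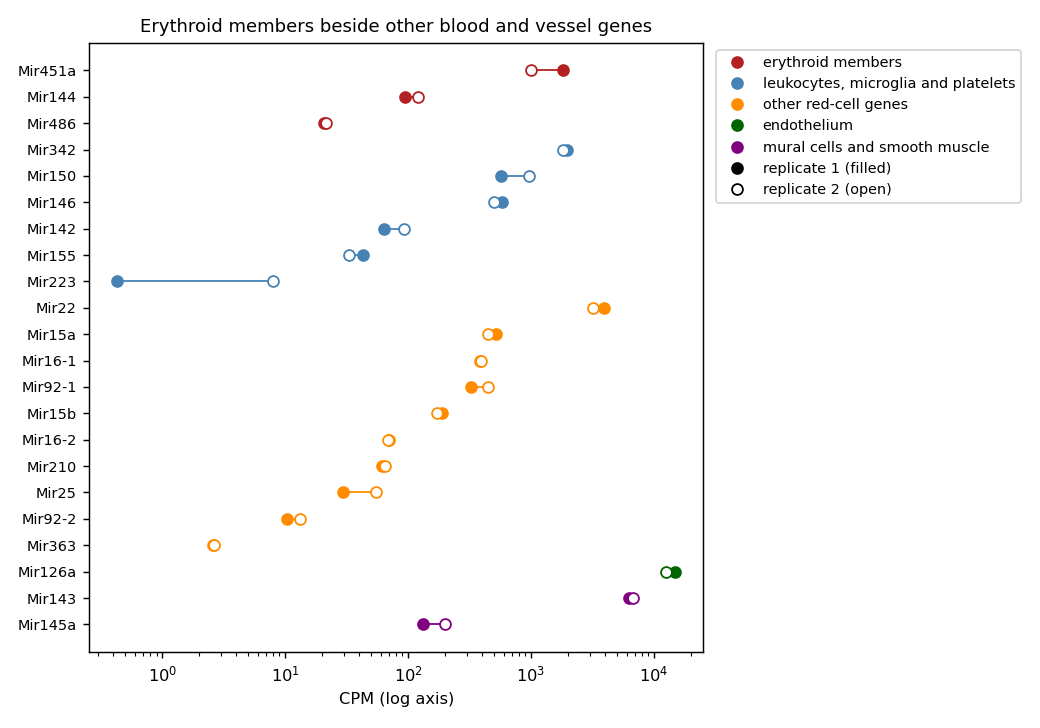
CPM (log axis) of each gene listed for erythroid cells, leukocytes, microglia and platelets, other red-cell genes, endothelium and mural cells. Replicate 1 (filled) and replicate 2 (open) are joined by a line. Mir451a is higher in replicate 1 (1807 against 1007 CPM), as are Mir146 (585 against 497 CPM), Mir342 and Mir155, while Mir144, Mir150 (569 against 966 CPM), Mir142 and Mir223 are higher in replicate 2.

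The summed members, at 1922 CPM in replicate 1, against 1149 CPM in replicate 2, lay below the sums of most other lists. They were 0.599 of the leukocyte, microglia and platelet sum in replicate 1 and 0.335 in replicate 2, which did not exceed 2 SD of the log2 ratio. They were 0.129 and 0.0921 of Mir126a, 0.298 and 0.166 of the mural sum, and 0.440 and 0.428 of the oligodendrocyte sum, each beyond that spread. The oligodendrocyte ratio moved to 0.799, in place of a mean of 0.434, when genes sharing 20 nt or more with another hairpin were left out. Against the other red-cell genes the ratios were 0.347 and 0.235. The sum exceeded Mir122, the liver microRNA gene, 36.9-fold and 28.2-fold. It was 2.79 times the choroid plexus sum in replicate 1 and 1.24 times in replicate 2, which did not exceed the spread. Several list sums were mostly 1 gene. By mean CPM, Mir342 held 1891 of 3320 in the leukocyte, microglia and platelet sum, and Mir22 held 3579 of 5208 in the other red-cell sum. Mir143 held 6530 of 6695 in the mural sum, and Mir204 held 664 of 808 in the choroid plexus sum.

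The neuron list was taken to stand for the labelled tissue. Its sum was 33310 CPM in replicate 1, against 47982 CPM in replicate 2, of which the erythroid sum was 0.0577 and 0.0240. Of its 13 genes 11 were detected, while the 3 Mir124a genes, made at several loci, had at most 11 counts each. Of the 10 neuron genes with a RefSeq sequence, 7 share a long run of bases with another hairpin, namely the Mir9, Mir128 and Mir138 genes. Multimapping reads entered no gene, so the neuron sum, and the ratios to it, may leave out part of these products. By mean CPM, Mir132 held 10916, Mir128-1 held 10712 and Mir137 held 10433 of the 40646 in the neuron sum. The lists differ in length, and these ratios compare sums rather than genes. No haemoglobin transcript could be set beside the members, because the tables hold microRNA genes only.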

How the data were processed

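MicroRNA-seq counts of 2 hippocampus libraries were analysed, with 6441333 and 10003856 reads, of which 2322520 and 3414105 were counted on microRNA genes of the same strand. Fragments were under 30 nt and the assembly was mm10, per the labels, and per the deposited sample descriptions the annotation was M21. Neither aligner nor counter is named in the labels or files. The authors deposited raw read counts per gene, 1 table per library, in 3 columns. The 4 rows that name no gene (unmapped 16.2% and 15.1%, multimapping 42.6% and 46.0%, no feature 5.16% and 4.70%, ambiguous 0%) stayed out of totals.

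Same-strand counts were scaled to 1000000 over all genes (CPM). Shares have Wilson 95% intervals and ratios exact Clopper-Pearson intervals. Libraries were compared by two-sided exact binomial tests with TMM sizes from edgeR 4.0.16. Benjamini-Hochberg adjustment at 0.05 covered the genes that reached 2 CPM in each library. These tests allow for counting error only, so their p-values do not cover other variation between libraries. The tests were run on simulated counts, which cannot show whether counting error alone holds for the measured libraries. With 1 group, edgeR's quasi-likelihood test had no contrast. Log2 ratios used 0.5 added counts. Hairpins were folded with RNAfold 2.7.2. Alternatives were the unstranded column, other denominators and scalings (DESeq2 1.42.0 size factors among them), other filters, leaving out a library, and leaving out genes sharing 20 nt with another hairpin.

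The members, lists and tests were chosen with earlier results of these data known. Named genes are the members, microRNA genes within 10 kb, the 3 nearest by level, the next in rank on each side, genes of the fixed lists and genes sharing a seed. The rank neighbours and Mir101a were added after values were seen. Mir92a-1 and Mir92a-2 were matched as Mir92-1 and Mir92-2 through RefSeq synonyms.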

Additional observations from a re-analysis of the deposited data

How the results depend on the processing

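The direction of Mir451a and of Mir144 between the libraries held under each alternative that could give a value, which for Mir144 includes the unstranded column. The order of the members held except in that column, where Mir451a and Mir486 had 0 CPM and the ratio of Mir451a to Mir144 was 0, since their reads were ambiguous there. In that column the summed members, then Mir144 alone, were 0.0206 of the other red-cell genes, 0.0330 of leukocytes, microglia and platelets, 0.0160 of mural cells, 0.00268 of neurons, 0.134 of choroid plexus and 2.32 times liver. No ratio to Mir486 or to the endothelial and oligodendrocyte sums could be formed for both libraries. CPM values are shares: over all reads the means were 498 for Mir451a, 37.7 for Mir144 and 7.37 for Mir486 per 1000000 reads, and without the 5 leading genes in the total 2500 for Mir451a, 189 for Mir144 and 37.0 for Mir486 CPM. DESeq2 size factors turned the log2 difference of Mir486 to 0.013, in place of -0.019, neither past the test. Leaving out oligodendrocyte genes that share 20 nt left Mir338 alone and raised the ratio to that list to 0.799. The summed members were then higher in replicate 1 and lower in replicate 2. Fewer than 80% of the neuron, mural and liver genes had a RefSeq sequence, so that check is void for them. The count of genes that differ ranged from 184 to 210.

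Without one replicate the means ranged from 1007 to 1807 CPM for Mir451a, from 94.7 to 121 CPM for Mir144 and from 20.7 to 21.4 CPM for Mir486, and the ratio of Mir451a to Mir144 from 8.32 to 19.1. No paired analysis was possible because there is 1 group. Mir486, at 48 and 73 reads, is the member that depth limits most.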
